A study of Homo sapiens with 2 samples.

Results

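Human chromosomes carry gene families that multiplied in the primate lineage through segmental duplication, the copying of long blocks of a chromosome to new places. The 7 families described here are of this kind: NPIPA and NPIPB (nuclear pore complex interacting protein), NBPF (neuroblastoma breakpoint family), GOLGA6 and GOLGA8 (golgin A), TBC1D3 (TBC domain proteins) and SPDYE (Speedy/RINGO proteins). They were chosen by gene symbol after earlier results of the same arrays were known, so the siYY1 minus siControl values below are a description of the contrast that led to the choice and carry no test. The symbol rule matched 50 of 17709 named probe sets. TBC1D30, TBC1D31 and TBC1D32 matched only by the letters of their symbols, since they are single-copy genes of the wider TBC domain family, and they were set apart, which left 47 members: 3 NPIPA, 8 NPIPB, 12 NBPF, 8 GOLGA6, 7 GOLGA8, 4 TBC1D3 and 5 SPDYE. Each member had 1 probe set.

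The data were 2 whole-transcript microarrays of DLD-1, an established line of human colorectal cancer cells. The control culture received a non-targeting siRNA (siControl) and the knockdown culture 1 siRNA directed at YY1 (siYY1), a zinc finger transcription factor that can activate or repress genes. Each siRNA was given at 5 nmol/L, and RNA was isolated after 3 days. Each group was 1 array of 1 culture, so no value has a replicate error and every difference compares these arrays, not the conditions. YY1 had no named probe set, so the depth of the knockdown was not analysed here. In such bulk RNA, fewer cells of a type and less RNA per cell cannot be told apart. Values are log2 units after quantile normalization, a scale inferred from the range of the deposited values, and a log2 difference of 1 is 2-fold. Several epithelial markers were bright: EPCAM was at 16.3 and 16.5 in siControl and siYY1, KRT8 at 16.5 and 16.7, and CDH1 at 14.0 on both. Of 12 epithelial and intestinal markers looked for, 11 were measured, and 3 of them, CDX1, PHGR1 and LGALS4, were dim, at 4.53 to 4.88 in siControl. Of the 11, 4 were above 0 and 7 below in siYY1 minus siControl, with CDX2 at 13.1 and 12.3 (-0.76), VIL1 at -0.51 and KRT19 at -0.40. The fibroblast, leukocyte and endothelial markers ran from 3.62 to 8.62 in siControl, and 13 genes of other tissues from 3.06 to 6.79, which gives the range of dim values.

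NPIP genes are the core of a duplicated block that spread along chromosome 16, and their proteins were named for a link to the nuclear pore that is still poorly understood. NBPF genes lie mainly on chromosome 1 and encode proteins built from repeated Olduvai domains, whose number grew strongly in the human lineage. GOLGA6 and GOLGA8 are shortened copies of a coiled-coil protein of the Golgi apparatus and often lie at breakpoints of chromosome 15. TBC1D3 encodes a protein with a TBC domain, a fold that in relatives switches off Rab GTPases, and SPDYE genes encode proteins with a Speedy domain, a fold that in relatives activates cyclin-dependent kinases. The RefSeq gene table of GRCh38.p14 lists 133 genes and pseudogenes with these symbols, of which 47 had a named probe set here, 43 of them protein-coding and 4 transcribed pseudogenes. For NPIPA and NPIPB the figures were 11 of 23. Probe sets of near-identical copies can share signal, so a value given for a gene may include its copies. This sharing was not tested, since probe sequences were not analysed here.

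Sequences before the annotated transcription start are shown for the NPIP members that RefSeq gives a window for, because they had the largest differences, and later for 3 NBPF members that share a start region. Each run holds the 250 bases before the start, 5′ to 3′ on the gene's own strand, from RefSeq on GRCh38.p14. The runs of the NPIPA pair lie at chr16:14937193-14937442 (plus strand) for NPIPA1 and chr16:15378295-15378544 (minus strand) for NPIPA5. They differ at 1 base, A206T, counted from 1 at the 5′ end of the run with NPIPA1 as the reference, and the capital marks it.

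NPIPA1: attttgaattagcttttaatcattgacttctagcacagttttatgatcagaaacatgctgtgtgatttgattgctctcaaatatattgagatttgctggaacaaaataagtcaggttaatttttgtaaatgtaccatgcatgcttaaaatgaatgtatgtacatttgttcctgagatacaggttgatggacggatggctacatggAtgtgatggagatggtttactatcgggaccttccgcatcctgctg

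NPIPA5: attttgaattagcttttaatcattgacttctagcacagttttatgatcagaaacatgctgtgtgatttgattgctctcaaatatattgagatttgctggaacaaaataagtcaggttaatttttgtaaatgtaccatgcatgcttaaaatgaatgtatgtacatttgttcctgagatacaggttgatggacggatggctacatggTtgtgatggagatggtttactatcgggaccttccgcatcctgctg

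The NPIPB runs lie at chr16:21425379-21425628 (minus strand) for NPIPB3, chr16:21857757-21858006 (minus strand) for NPIPB4, chr16:28637815-28638064 (plus strand) for the second of 2 windows of NPIPB8 and chr16:28364781-28365030 (minus strand) for NPIPB6. In these runs capitals mark the letters of the CCAAT box, the TATA box or the GC box on either strand, as spelled out with the motif search.

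NPIPB3: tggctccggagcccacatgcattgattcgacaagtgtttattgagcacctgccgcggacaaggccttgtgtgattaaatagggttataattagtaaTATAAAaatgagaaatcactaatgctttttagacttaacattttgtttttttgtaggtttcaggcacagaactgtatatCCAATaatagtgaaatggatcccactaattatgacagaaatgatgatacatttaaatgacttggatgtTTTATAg

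NPIPB4: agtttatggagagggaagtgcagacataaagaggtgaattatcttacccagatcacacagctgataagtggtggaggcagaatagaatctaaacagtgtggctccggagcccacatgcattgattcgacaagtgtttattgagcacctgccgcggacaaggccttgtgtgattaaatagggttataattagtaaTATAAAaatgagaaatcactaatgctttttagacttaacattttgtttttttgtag

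NPIPB8: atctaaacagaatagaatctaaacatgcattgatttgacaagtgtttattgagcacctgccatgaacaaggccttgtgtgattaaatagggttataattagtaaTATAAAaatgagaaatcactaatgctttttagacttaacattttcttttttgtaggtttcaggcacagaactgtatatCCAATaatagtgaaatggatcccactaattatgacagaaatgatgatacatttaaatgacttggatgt

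NPIPB6: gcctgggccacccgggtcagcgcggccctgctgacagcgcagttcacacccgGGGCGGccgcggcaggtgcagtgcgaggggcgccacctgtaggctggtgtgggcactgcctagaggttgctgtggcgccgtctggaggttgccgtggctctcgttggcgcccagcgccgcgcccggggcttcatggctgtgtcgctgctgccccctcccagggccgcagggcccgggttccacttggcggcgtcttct

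These runs fall into 3 kinds. NPIPA1 and NPIPA5 were 99.7% identical over the whole window of 300 bases, which adds the 50 bases after the start. NPIPB3 and NPIPB4 shared a stretch of 202 bases at 100% identity that begins 98 bases apart in their windows, so they are copies of 1 region with the start annotated at different places. NPIPB3 and NPIPB8 aligned over 279 positions at 97.1% identity. The NPIPB6 run was a different, GC-rich sequence and shared no local alignment longer than 15 positions with any of the other 5. NPIPA and NPIPB3, NPIPB4 or NPIPB8 shared none longer than 9. By their RefSeq annotation, the 6 NPIP members shown therefore start in 3 kinds of sequence that share no long alignment. Where their transcripts start in these cells was not measured.

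All 11 NPIP members were higher in the siYY1 array, by 2.92-fold to 5.82-fold. Over the 17709 named probe sets 4.56% lay 2-fold or more above siControl and 5.59% as far below. In all, 16 of the 47 members lay 2-fold or more above siControl and 0 as far below, and because this contrast led to their choice, these counts are given without reading them against that share. At 1.5-fold or more above siControl were 25 members, where the share of all named probe sets was 13.6%, and at 3-fold or more 9, where it was 0.977%. The median of the 47 was 0.67 and that of all named probe sets was -0.0046. Above 0 were 42 members and below 0 were 5, and over all named probe sets 8790 were above 0 and 8909 below. Later counts above 0 for families and lists stand beside the same figures and are likewise not read against them.

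The NPIPA members had the widest differences of the 7 families by median, which was 2.42. NPIPA3 was at 9.69 (siControl) and 12.2 (siYY1), differing by 2.54 or 5.82-fold, and was the fifth highest of all named probe sets. NPIPA5 was at 10.4 and 12.9, differing by 2.42 or 5.36-fold. NPIPA1 was at 10.2 and 12.3, differing by 2.08 or 4.23-fold. The gap of 0.34 between the differences of NPIPA5 and NPIPA1, whose start regions differ at A206T, was smaller than 0.38, the median gap between probe sets of 1 gene over the 20 genes on the array that have several. NPIPA3 and NPIPA1 lay 0.46 apart, above that median but inside the range of such gaps, which reached 0.98. Within NPIPA the siYY1 value was thus higher for every probe set. Gaps between probe sets of 1 gene come from the same 2 arrays and hold no replicate error, so the order of the 3 differences was not tested.

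The 8 NPIPB members had a median difference of 1.67. NPIPB8 was the highest of them, at 10.6 in siControl and 13.0 in siYY1, differing by 2.42 or 5.37-fold. NPIPB6 was at 10.2 and 12.2, differing by 2.02. NPIPB9 was at 9.83 and 11.7, differing by 1.91. After these 3 came 5 members within 0.14 of each other. With no replicate error, whether these 5 differ was not tested. NPIPB5 was at 11.6 and 13.3 (1.69), NPIPB15 at 9.96 and 11.6 (1.65) and NPIPB4 at 12.5 and 14.1 (1.60). NPIPB11 was at 10.4 and 12.0 (1.57). NPIPB3 was at 11.7 and 13.3 (1.55, or 2.92-fold), the lowest of the 11, and ranked 193rd from the top of all named probe sets.

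The differences of some of these members are set beside their start regions as a description. NPIPA1 and NPIPA5, the pair at 90% identity or more over the whole window, lay 0.34 apart, and the other 14 pairs had a median gap of 0.44. NPIPB3 and NPIPB4, copies of 1 region, differed by 0.05 in their siYY1 minus siControl difference. NPIPB3 and NPIPB8, aligned at 97.1% identity, differed by 0.88, near the largest gap of 0.98 seen between probe sets of 1 gene. NPIPB6 and NPIPA1, whose windows shared no more than 15 aligned positions, differed by 0.06. The last 3 pairs are among the 15 that the 6 NPIP members form and were named after their values were seen, so they show no relation between start region and difference, nor its absence.

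**Figure D1:**
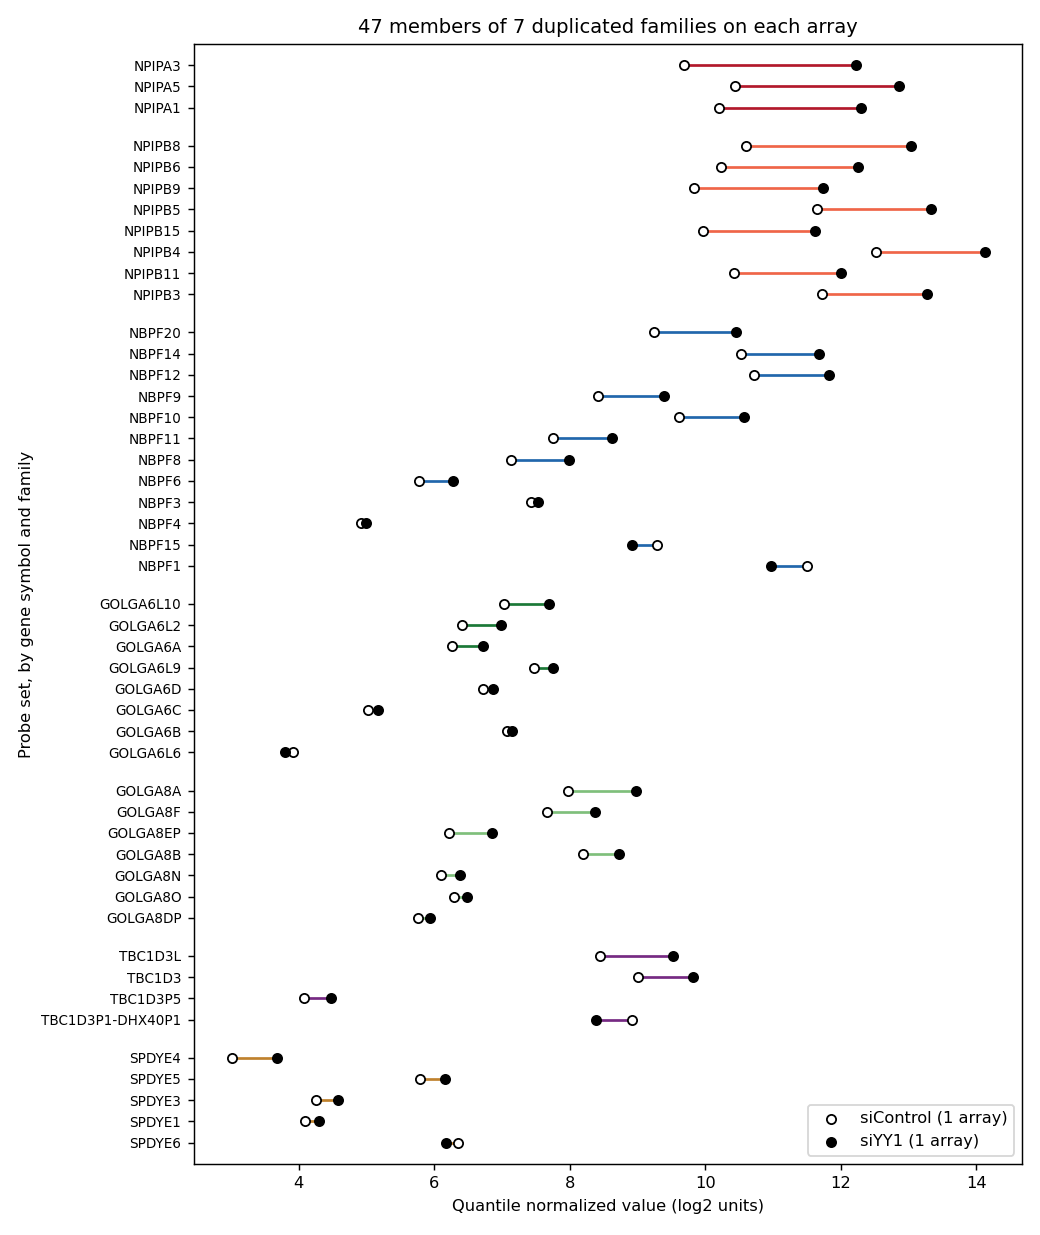
Quantile normalized value (log2 units, horizontal axis) of each of the 47 members (vertical axis, grouped by family) in the siControl array (open circles) and the siYY1 array (filled circles), with a line joining them. In NPIPA and NPIPB every filled circle lies to the right of its open circle, while NBPF1, NBPF15, GOLGA6L6, TBC1D3P1-DHX40P1 and SPDYE6 are the 5 members with the filled circle to the left.

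The NPIP values were also set beside probe sets of the same brightness, since large differences were more frequent among bright probe sets. Outside the families, 3892 named probe sets had a siControl value between 9.69 and 12.5, the range of the 11 NPIP members. A share of 6.55% lay 2-fold or more above siControl and 10.2% as far below, around a median of -0.06. Restricting them to genes whose RefSeq span lies between 14614 and 32937 bases, as in NPIP, left 924 probe sets with a median of -0.12, of which 4.87% were at least 2-fold higher. Both medians lie below 0, and the highest difference was 2.59 in the first set and 2.04 in the second. Whether brightness or span bears on the NPIP values was not tested. This comparison was chosen after the values were seen.

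**Figure D2:**
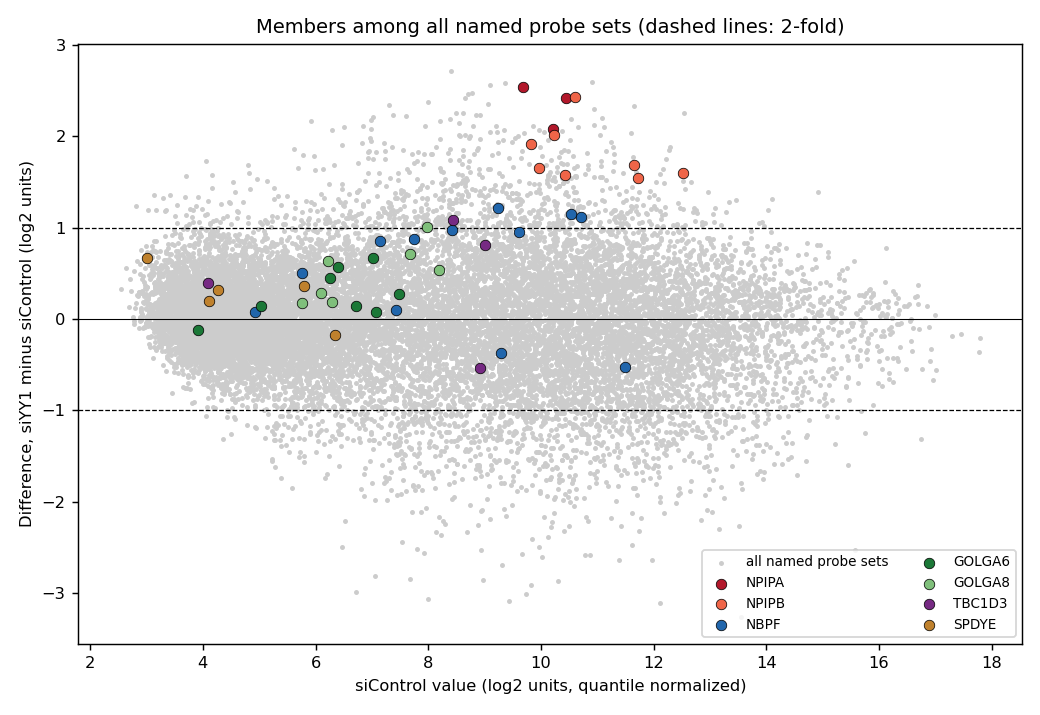
Difference between the arrays (siYY1 minus siControl, log2 units, vertical axis) against the siControl value (log2 units, horizontal axis) for all 17709 named probe sets (grey) and the 47 members (coloured by family). The 11 NPIP members lie between 1.55 and 2.54, among the upper grey points of their brightness, and no member lies below the lower 2-fold line.

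In NBPF, 10 of 12 members were higher in the siYY1 array and 2 were lower, with a median of 0.86. NBPF20 was at 9.24 (siControl) and 10.5 (siYY1), differing by 1.22 or 2.32-fold. NBPF14 was at 10.5 and 11.7, differing by 1.15, and NBPF12 at 10.7 and 11.8, differing by 1.11. Just under 2-fold were NBPF9 at 0.98 and NBPF10 at 0.96, followed by NBPF11 at 0.87 and NBPF8 at 0.86. These 7 lie within 0.36 of each other, less than the median gap of 0.38 between probe sets of 1 gene. NBPF6 differed by 0.51, with dim values of 5.77 and 6.28. NBPF3 at 0.10 and NBPF4 at 0.07 differed little. On the other side of 0 were NBPF15, at 9.29 in siControl and 8.92 in siYY1 (-0.37), and NBPF1, at 11.5 and 11.0 (-0.53, or 1.44-fold lower).

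NBPF8, NBPF9 and NBPF15 are shown together because their start regions are near-identical and their values lie on both sides of 0. The runs lie at chr1:120414777-120415026 (plus strand) for the first of 2 windows of NBPF8, chr1:149103552-149103801 (minus strand) for NBPF9 and chr1:144461670-144461919 (minus strand) for NBPF15, and capitals mark the GC box, whose letters are not in the NBPF9 run.

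NBPF8: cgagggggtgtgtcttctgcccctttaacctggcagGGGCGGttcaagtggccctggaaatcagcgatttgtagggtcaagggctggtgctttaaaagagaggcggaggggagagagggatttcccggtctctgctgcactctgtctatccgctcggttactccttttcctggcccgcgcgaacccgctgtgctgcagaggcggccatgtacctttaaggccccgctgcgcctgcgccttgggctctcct

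NBPF9: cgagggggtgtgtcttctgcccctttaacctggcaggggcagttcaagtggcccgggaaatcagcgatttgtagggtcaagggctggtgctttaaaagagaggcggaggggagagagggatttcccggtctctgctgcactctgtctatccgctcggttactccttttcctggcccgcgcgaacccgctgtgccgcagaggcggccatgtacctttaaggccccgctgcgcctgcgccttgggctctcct

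NBPF15: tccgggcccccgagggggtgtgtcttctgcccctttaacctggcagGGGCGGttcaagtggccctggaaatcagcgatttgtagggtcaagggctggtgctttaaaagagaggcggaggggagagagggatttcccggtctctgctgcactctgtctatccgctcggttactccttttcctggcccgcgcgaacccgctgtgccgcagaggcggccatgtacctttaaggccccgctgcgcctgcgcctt

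NBPF15 aligned to NBPF8 over 290 positions at 99.0% identity and to NBPF9 over 291 positions at 98.3%, with its start annotated 10 bases away. NBPF8 and NBPF9 were 98.0% identical over 300 positions. The difference of NBPF15 was 1.23 below that of NBPF8 and 1.35 below that of NBPF9, more than the largest gap of 0.98 between probe sets of 1 gene. NBPF8 and NBPF9 lay 0.12 apart. Among the other NBPF members, NBPF10 and NBPF14 shared a stretch of 265 positions at 99.6% identity and lay 0.19 apart, and NBPF11 and NBPF12 shared 261 positions at 99.2% and lay 0.24 apart. NBPF4 and NBPF6, both dim, shared 244 positions at 99.2% and lay 0.43 apart.

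The golgin copies had smaller median differences than NPIPA, NPIPB and NBPF. In GOLGA8 all 7 members were above 0, with a median of 0.53. GOLGA8A was at 7.97 (siControl) and 8.97 (siYY1), which is 2.01-fold, just inside 2-fold. GOLGA8F differed by 0.71, the transcribed pseudogene GOLGA8EP by 0.63 and GOLGA8B by 0.53, with values of 8.20 and 8.73. GOLGA8N at 0.28, GOLGA8O at 0.19 and the pseudogene GOLGA8DP at 0.17 were lowest. The last 3 had siControl values from 5.76 to 6.30, inside the range of genes of other tissues.

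In GOLGA6, 7 of 8 members were above 0 and none was 2-fold away, with a median of 0.21. GOLGA6L10 was at 7.02 (siControl) and 7.69 (siYY1), differing by 0.67. GOLGA6L2 differed by 0.57, GOLGA6A by 0.45 and GOLGA6L9 by 0.28, the last with values of 7.48 and 7.75. GOLGA6D and GOLGA6C were both at 0.14, GOLGA6B at 0.07 and GOLGA6L6 at -0.12. GOLGA6A, GOLGA6B and GOLGA6D have start windows at least 99.7% identical to each other, and their differences lay 0.07 to 0.38 apart. None of these gaps exceeded the median gap between probe sets of 1 gene.

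Of the 4 TBC1D3 probe sets, 3 were above 0. TBC1D3L was at 8.44 (siControl) and 9.52 (siYY1), differing by 1.08 or 2.12-fold, and TBC1D3 was at 9.01 and 9.82, differing by 0.81. These protein-coding copies have identical start windows. The pseudogene TBC1D3P5 was dim, at 4.08 and 4.47. The transcribed pseudogene TBC1D3P1-DHX40P1, whose symbol joins copies of TBC1D3 and DHX40, was at 8.92 and 8.38, a difference of -0.53 and the lowest of all 47. TBC1D30, TBC1D31 and TBC1D32, set apart above, differed by 0.27, -0.25 and -0.07.

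All 5 SPDYE members had siControl values between 3.01 and 6.35, below the highest of the genes of other tissues, 6.79. SPDYE4 was at 3.01 (siControl) and 3.68 (siYY1), differing by 0.67. SPDYE5 differed by 0.37, SPDYE3 by 0.32 and SPDYE1 by 0.20, while SPDYE6 was at 6.35 and 6.18 (-0.17). None was 2-fold away, and 4 of 5 were above 0. Counting members by brightness, 29 of the 47 had a higher value of the 2 arrays of at least 7.5, the middle of all named probe sets by that measure: 11 NPIP, 10 NBPF, 2 GOLGA6, 3 GOLGA8, 3 TBC1D3 and 0 SPDYE. In siControl alone, 25 reached it.

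Lists of related genes give the levels around these families. The first list held 71 probe sets from other families duplicated in primates, such as RGPD, POTE, PRAMEF, FAM72, NOMO and LRRC37. In it 1 (1.41%) lay 2-fold or more above siControl and 1 as far below, against 4.56% and 5.59% of all named probe sets. The median of the list was -0.02 and became 0.06 in the values as deposited. By the higher value of the 2 arrays, 33 of the 71 reached 7.5. The symbol prefixes also caught single-copy genes of the WASH complex and GTF2IRD1. LRRC37A, a leucine-rich repeat gene at 11.1 in siControl and 12.6 in siYY1, was the highest at 1.56. FAM72D, at 9.70 and 8.50, was the lowest at -1.20, and all 4 FAM72 copies were below 0. The 3 NOMO genes, of which NOMO1 lies between NPIPA3 and NPIPA1, were at 0.89, 0.78 and 0.24.

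Single-copy relatives of the families had a median of 0.16 over 42 probe sets, 4 of them 2-fold or more above siControl and 0 as far below. Over all named probe sets the shares were 4.56% and 5.59%. The median became 0.09 in the values as deposited and 0.02 with the arrays centred on their medians. All 4 were TBC domain genes, which make up 30 of the 42: TBC1D10B at 1.54, TBC1D9B at 1.19, TBC1D22B at 1.13 and TBC1D16 at 1.10. TBC1D10B and TBC1D16 were dim in siControl, at 4.97 and 5.62. TBC1D8B was the lowest, at -0.86. Among 8 golgins outside the duplicated families the median was 0.19, from GOLGA1 at -0.49 to GOLGA5 at 0.72, and GOLGA2, a Golgi matrix protein, was at 9.88 in siControl and 10.5 in siYY1 (0.66). SPDYA and SPDYC, single-copy Speedy genes, were dim and differed by 0.07 and 0.36. USP6, a fusion of a TBC1D3-like and a ubiquitin protease part, differed by 0.55, and CDK5RAP2, a centrosomal protein, by 0.57. The name single-copy is loose for USP6, whose TBC1D3-like part may share signal with TBC1D3, which was not tested. The 42 include TBC1D30, TBC1D31 and TBC1D32, set apart above, and copies of the other list members were not looked for.

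**Figure D3:**
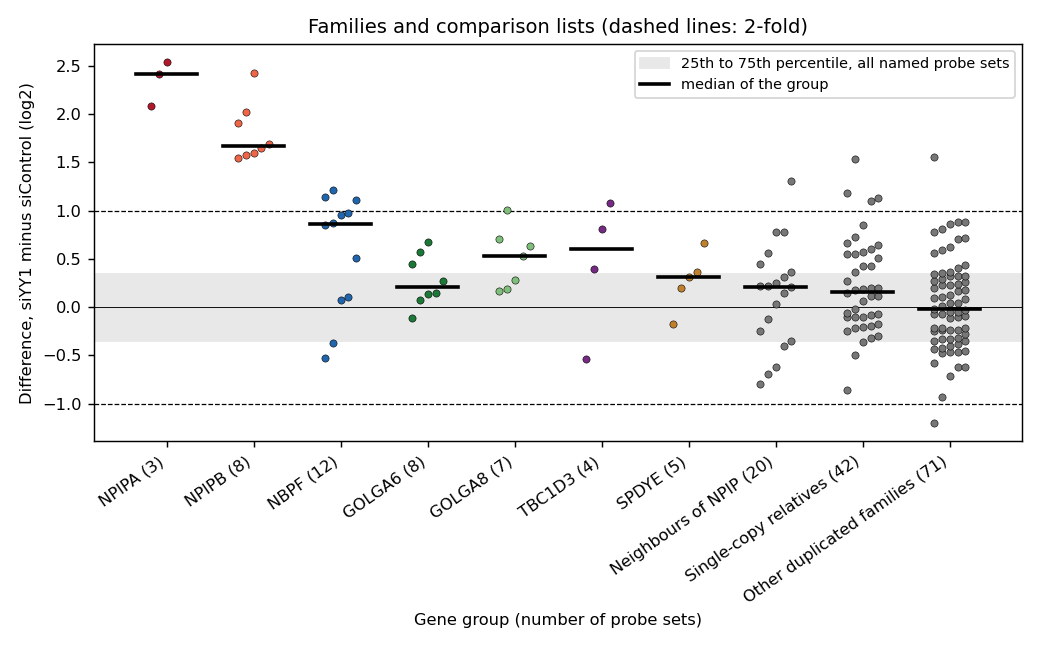
Difference between the arrays (siYY1 minus siControl, log2 units, vertical axis) of each probe set in the 7 families (coloured) and in 3 comparison lists (grey), with the number of probe sets in brackets; black bars are medians, the grey band runs from the 25th to the 75th percentile of all named probe sets and dashed lines mark 2-fold. The medians of NPIPA at 2.42 and NPIPB at 1.67 lie above the 2-fold line, those of the other 5 families between 0.21 and 0.86, and those of the lists between -0.02 and 0.21.

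The genes that lie next to NPIP members on chromosome 16 in gene order were read beside them. Neighbours were taken by order of start alone, with no limit on distance. Sharing of signal with copies elsewhere, as is possible for NOMO1 among the NOMO genes, was not tested for any neighbour. The nearest measured protein-coding genes outside the families, on either side of the 11 NPIP members in the RefSeq order, were 20 genes with a median of 0.21, or 0.12 with the arrays centred on their medians. Of these 13 were above 0, and 1 (5.0%) was at least 2-fold higher, where the share of all named probe sets was 4.56%. That gene was the ataxin-2 relative ATXN2L, at 13.5 in siControl and 14.8 in siYY1 (1.30), next to NPIPB9. NOMO1, between NPIPA3 and NPIPA1, was at 0.78, and SULT1A1, a sulfotransferase next to NPIPB8, also at 0.78. EIF3C, a translation initiation factor subunit between NPIPB8 and NPIPB9, was at 0.25. Below 0 were PDXDC1 next to NPIPA1 at -0.80, RRN3, an RNA polymerase I initiation factor next to NPIPA5, at -0.69, and CDR2 next to NPIPB5 at -0.62. Each NPIP member was higher than both of its neighbours, by 0.61 at NPIPB9 and by 1.01 to 2.05 at the other 10. Since this contrast led to the choice of the families, that order is a description and was not tested.

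**Figure D4:**
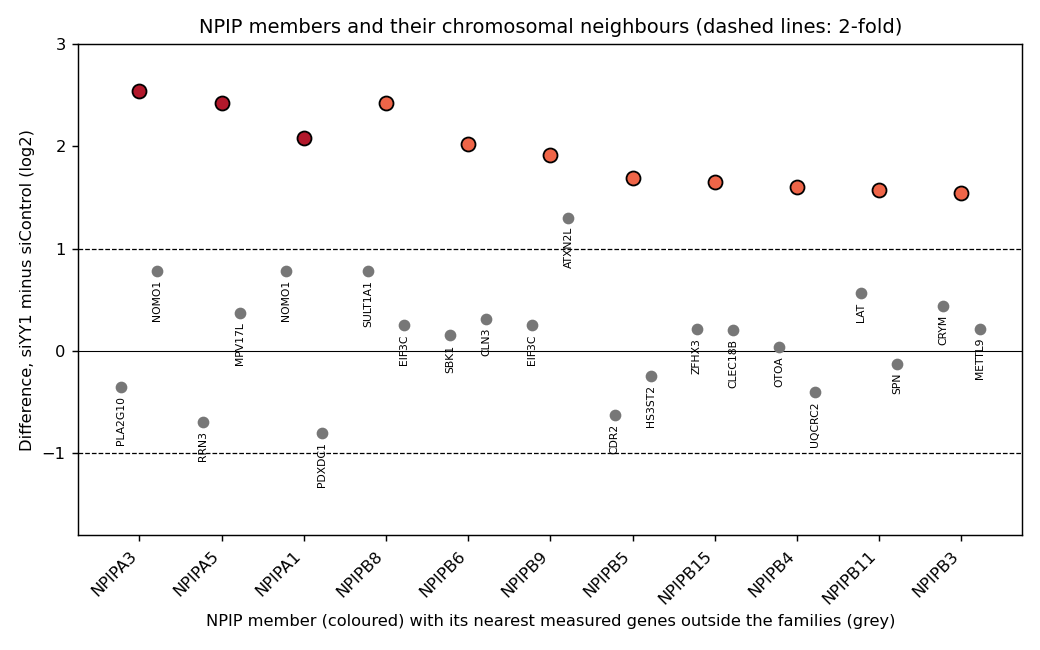
Difference between the arrays (siYY1 minus siControl, log2 units, vertical axis) of the 11 NPIP members (coloured, horizontal axis) and of the nearest measured protein-coding gene outside the families on either side of each (grey, named). All NPIP members lie at or above 1.55, while the neighbours run from -0.80 for PDXDC1 to 1.30 for ATXN2L, and NOMO1 and EIF3C appear beside 2 members each.

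Around all 7 families, the median of 71 neighbouring genes was 0.15, which became 0.08 in the values as deposited and 0.0053 with the arrays centred on their medians. Of all named probe sets 4.56% lay 2-fold or more above siControl and 5.59% as far below. Among the 71 neighbours 3 (4.23%) lay 2-fold or more above and 2 (2.82%) as far below. Besides ATXN2L the higher ones were the ubiquitin ligase HERC2 next to GOLGA8F at 2.11, whose siControl value of 6.84 was just above the range of genes of other tissues, and the nucleoporin POM121C next to SPDYE5 at 1.85. The lower ones were WSB1 next to TBC1D3P5 at -1.52 and FAM72D next to NBPF20 at -1.20. HERC2 and POM121C have duplicated partial copies of their own, so sharing of signal applies to them too and was not tested.

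The start windows were searched for letters of the YY1 site and of common promoter elements, as a description of the sequence. Of the 47 members 36 had a window from 250 bases before to 50 after the start. On both strands, AANATGGC and ATGGCGGC, 2 spellings of the YY1 site that overlap in ATGGC, were found in 0 of 36 members, against 7.97% and 3.67% of the 27305 genes with a window. The absence says only that these letters are not in these windows. GGGCGG, the GC box, was found in 12 members or 33.3%, against 48.3% of all genes. CCAAT was found in 17 or 47.2%, against 39.7%. TATAAA, the TATA box, was found in 9, against 14.0% of all genes. By family, the CCAAT box was in 6 of 8 GOLGA6 and 3 of 4 GOLGA8 windows, and the GC box in 7 of 8 GOLGA6 and 0 of 4 GOLGA8 windows. The TATAAA letters were in 3 of 4 NPIPB windows. Their shared match lies 154 (NPIPB3), 56 (NPIPB4) and 146 (NPIPB8) bases before the annotated start, in the stretch that these runs share. Whether it serves as a promoter element was not tested. NPIPA1 and NPIPA5 held none of the 5. Near-identical windows share their letters, so these members are not independent of each other.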

How the data were processed

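The authors deposited 1 value per probe set and array, taken as log2 from its range of 2.51 to 17.9. Software, normalization and build, not given in the sources used here, could shift every value. RNA was converted to biotin-labelled sense cDNA, per the labels' protocols. Groups came from the sample titles, 1 array each, so the number of arrays limits the precision and nothing was tested. Members and lists were chosen with earlier results of these data known.

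All 21448 probe sets of the pair were quantile normalized. A platform annotation named 17709 of them, each with 1 symbol, and 3739 had none. All 17709 matched the RefSeq table of GRCh38.p14 by gene ID, which gave gene type, span and neighbours. Differences were siYY1 minus siControl, counted at 2-fold, with no filter on brightness. The rule for named genes took all NPIP members, and in the other families the ends of the range, the highest siControl value and those past 2-fold, and in the lists those past 2-fold, at most 4 on each side, and the ends of the range. Other members, list members, pairs and printed windows were chosen after their values were seen. A protein identity comparison was planned but not run, as proteins were not analysed here. Identity of start windows, by global and local alignment, took its place. The computation was tested on simulated data, where decreases in the dimmest probe sets were recovered incompletely, because quantile normalization cannot carry a value below the lowest on the arrays. Alternatives were loess, centring on medians, the deposited values, brightness filters, 1.5-fold and 3-fold, protein-coding genes, updated symbols, averaged probe sets and means. Tools were Biopython 1.88, statsmodels 0.14.6, pandas 2.3.3, numpy 2.4.6, matplotlib 3.10.9, scipy 1.17.1 and Python 3.11.15.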

Additional observations from a re-analysis of the deposited data

How the results depend on the processing

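All 11 NPIP members were at least 2-fold higher in the values as deposited, with arrays centred on medians and after loess, where the lowest of them was at 1.38, 1.31 and 1.53. The number of the 47 members at least 2-fold higher was 16 after quantile normalization, 13 as deposited, 12 with centring and 15 after loess, where the share of all named probe sets was 4.56%, 4.16%, 3.31% and 4.38%. It was 25 at 1.5-fold, against 13.6% of all, and 9 at 3-fold, against 0.977%, and 0 were lower at either. The median of the members moved from 0.67 to 1.08 when probe sets dim in both arrays or by their mean were left out, and to 1.11 with a minimum in siControl, chosen after seeing the data. Such filters remove mainly GOLGA6 and SPDYE, and no SPDYE member was left. With TBC1D30, TBC1D31 and TBC1D32 counted in, also chosen afterwards, the median was 0.60 and the count 16. A value was taken to have moved when it changed by at least 0.38, the median gap between probe sets of 1 gene, and a count by more than 1.5 times. That measure is wide for the median of a list, and smaller shifts passed under it. GOLGA6 went from 0.21 to 0.47 with the filter on the mean or the higher value, which left 2 members. With the minimum in siControl, set at the median siControl value of 7.23, it was 0.28, the value of GOLGA6L9 alone. GOLGA6L10, at 7.02 in siControl and 7.69 in siYY1, passed the former filters only through its siYY1 value, so 0.47 reflects the filter. With centring, single-copy relatives went from 0.16 to 0.02 and neighbours of all 7 families from 0.15 to 0.0053. No member past 2-fold changed direction under an alternative. Of all named probe sets past 2-fold, 44.9% were higher after quantile normalization, 38.2% as deposited and 29.5% with centring. With 1 array per group no paired analysis, left-out replicate or replicate error could be had. Dim probe sets limit what can be read from SPDYE, most of GOLGA6, GOLGA8N, GOLGA8O, the GOLGA8 pseudogenes, NBPF4, NBPF6 and TBC1D3P5.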
